A study of Mus musculus with 15 samples.

Results

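The genes described here were 10 transcriptional targets of the tumour suppressor p53 in mouse B cells: Cdkn1a (p21), Ccng1, Mdm2, Sesn1, Sesn2, Phlda3, Zmat3, Trp53inp1, Pmaip1 and Aen. They were chosen by name as established p53 targets, and all 10 were found among the 54838 genes of the deposited table. Each of them passed the filter on low counts that left 17144 genes for testing. Phlda3 passed it only through the activated cells, where it was high, so a count of called genes that holds Phlda3 is a description.

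p53 is a transcription factor that is kept low by the ubiquitin ligase MDM2 and is stabilised after DNA damage and other stresses, when it binds response elements near its targets. The targets arrest the cell cycle, limit growth signalling, feed back on p53 or promote cell death, and p21 is the best known of them. In germinal centres (GCs), the sites where B cells divide and mutate their antibody genes, the repressor BCL6 is known to hold down both p53 and p21.

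The libraries were bulk RNA-seq of splenic B cells from wild-type, 3-month-old male mice, 9 days after immunisation with sheep red blood cells; the strain is not given in the sources used here. Cells were pre-enriched as B220-positive by negative selection, and the naive and the GC populations were then sorted. The 5 groups of 3 libraries, lettered A, B and C, were naive B cells, GC B cells, and naive B cells cultured with anti-CD40, CpG or LPS for 5 days in a medium made for embryonic stem cells. The protocol names 80 ng/ml IL-4 with 5 µg/ml anti-CD40, 2 µM CpG or 25 µg/ml LPS, and does not settle whether IL-4 was also added with CpG and LPS. The design text leaves room for a reading in which the sorted GC cells, too, were cultured; libraries titled naive or GC were taken as sorted cells without culture. No cultured, unstimulated cells were among these libraries, so stimulation and culture cannot be told apart in any comparison with naive or GC cells. The labels do not say whether the letters are separate animals, so the p-values measure the spread between these libraries, which may be technical.

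Library totals ran from 25397624 to 36272197 counts, and 11523 to 19320 genes had a count. All 5 general B cell markers were detected in each group, GC markers summed to 2222 to 2519 CPM (counts scaled to a common library size) in GC libraries against 57.1 to 124 in naive ones, and naive markers to 6888 to 8577 CPM in naive libraries against 312 to 442 in GC ones. Summed T cell markers did not exceed 7.86 CPM in a library, NK cell markers 1.81 CPM and myeloid markers 47.9 CPM. Naive library B stood apart: it had the fewest detected genes and 298 CPM of summed erythroid markers, against 3.30 and 29.2 CPM in the other naive libraries. Among the 9 activated libraries, those of one letter resembled each other more than those of one titled stimulus, as shown further on for the p53 targets. Stimulus and letter were taken from the titles as given, and whether they are exchanged in the titles cannot be told from the labels. If they were, values given here by stimulus would be values by letter and the reverse; for instance Fcer2a, a marker of naive B cells, was at 890 to 981 CPM in the activated libraries lettered A and 150 to 183 CPM in those lettered B and C.

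The RefSeq promoter table (GRCm38.p6, 250 bases before to 50 bases after a transcript start) held 10 windows for 7 of the 10 genes, and the sequences below are shown because they place p53 motifs next to the genes that moved and one that did not move with them. The search used the 10-base p53 consensus decamer, named only, on both strands, and pairs of adjoining decamers of 20 bases with at most 1 mismatch, a search that overlaps the first. Capitals mark a match and lower case its flanks. Cdkn1a is at chr17:29090891-29090962 on the plus strand, Ccng1 at chr11:40755447-40755496 on the minus strand, Mdm2 at chr10:117710920-117710959 on the minus strand, Sesn1 at chr10:41887251-41887290 on the plus strand, and the Aen decamer at chr7:78895937-78895946 on the plus strand, within annotated exons.
Cdkn1a: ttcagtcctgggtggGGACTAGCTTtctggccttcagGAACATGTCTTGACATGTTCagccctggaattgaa
Ccng1: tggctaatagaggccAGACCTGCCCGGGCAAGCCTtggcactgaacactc
Mdm2: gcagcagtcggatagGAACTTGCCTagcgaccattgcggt
Sesn1: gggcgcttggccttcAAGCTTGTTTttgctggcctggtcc
Aen: GGGCTTGTCC

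A decamer was present in at least 1 window of these 5 genes. Counted by window, it was in 6 of the 10 windows, and in 2745 of all 32851 promoter windows (8.36%). The overlapping Aen windows hold the same decamer. The 20-base site with at most 1 mismatch was present for Cdkn1a, starting 51 bases before the transcript start at chr17:29090979. It was also present for Ccng1, 195 bases before its start, and in 29 of all windows (0.0883%). The other Cdkn1a window, with its start at chr17:29093769, held 0 decamers, and its best 20-base match had 5 mismatches. No decamer was in the windows of Sesn2 and Phlda3, which says only that these letters are not in these 300 bases. A match is a description and not a binding site.

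Across the groups, 7 of the 10 genes were higher and 1 was lower in cells activated with anti-CD40 than in naive cells, where 19.8% of all genes tested were higher and 14.3% lower. The same numbers, 7 and 1, were called with CpG (19.7% of all genes higher, 14% lower) and with LPS (19.5% higher, 14.2% lower). Without Phlda3 the count of higher genes was 6 in each. The 3 comparisons share the naive libraries and are not independent. In GC against naive cells, 2 of the 10 were higher and 1 lower, beside 17.9% and 16.5% of all genes. The median log2 fold change of the 10 genes was 1.61 with anti-CD40, 1.48 with CpG and 1.52 with LPS, beside 0.17, 0.18 and 0.18 over all genes, and -0.16 in GC cells beside 0.00. Over the 9 genes other than Phlda3 it was 0.95, 0.70, 0.82 and -0.13 in the same order. All tests were edgeR's quasi-likelihood test over the 15 libraries, with Benjamini-Hochberg adjustment over the 17144 genes and a threshold of 0.05. In bulk RNA, fewer cells expressing a gene and less RNA per cell cannot be told apart.

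**Figure D1:**
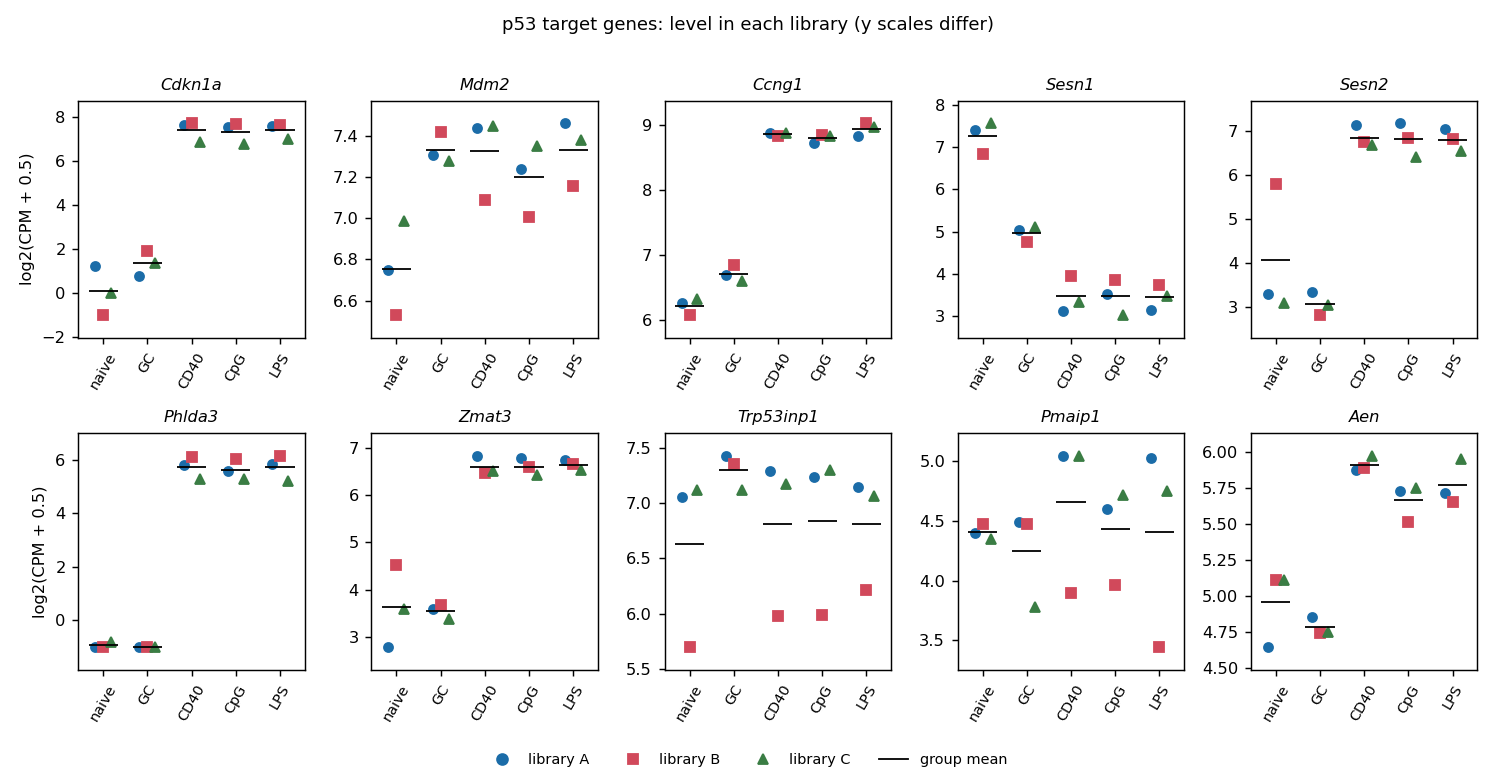
Expression of the 10 p53 target genes as log2(CPM + 0.5) in each of the 15 libraries, with groups on the horizontal axis, coloured points for library letters A, B and C and a bar for the group mean. Cdkn1a, Phlda3, Ccng1, Sesn2 and Zmat3 sit higher in the 9 activated libraries than in any naive or GC library, and Sesn1 sits lower.

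Cdkn1a encodes p21, the inhibitor of cyclin-dependent kinases through which p53 arrests the cell cycle. It stood at 1.81, 0 and 0.49 CPM in naive libraries A, B and C, and at 1.21, 3.27 and 2.04 CPM in GC libraries. It stood at 199.5, 206.9 and 115.4 CPM in the anti-CD40 libraries, at 183.7, 201.5 and 109.1 CPM in the CpG libraries, and at 189.0, 200.1 and 128.3 CPM in the LPS libraries. Every activated library was thus far above every naive and GC library, while the naive and GC ranges overlapped and both were low. Naive library A held 66 of the 80 Cdkn1a counts of the 3 naive libraries, and library B held 0. The log2 fold change against naive was 7.76 ± 0.86 (SE, n = 3 and 3; edgeR adjusted p = 2.52e-05) with anti-CD40, 7.68 ± 0.86 (2.75e-05) with CpG and 7.75 ± 0.86 (2.55e-05) with LPS; without naive library A it was 9.49, 9.42 and 9.48, so naive library A set its size. Against GC cells it was 6.31, 6.23 and 6.30 (edgeR adjusted p = 8.08e-05, 8.8e-05 and 8.29e-05), where 15.9%, 16.4% and 15.8% of all genes were higher. The GC difference from naive, 1.45 ± 0.74, was not called (adjusted p = 0.155), and became 3.16 (adjusted p = 0.00982, edgeR) without naive library A. Exons of Cdkn1a (chr17:29090976-29100727, plus strand) overlap those of AC167363.2 on the other strand by 273 bases, and whether the counting used strand is not given in the sources used here.

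Ccng1 encodes cyclin G1, a p53-induced partner of the phosphatase PP2A. Its naive libraries lay at 75.9, 66.8 and 79.6 CPM and its GC libraries at 103.0, 113.9 and 96.3 CPM, without overlap. The anti-CD40 libraries lay at 469.9, 454.7 and 472.6 CPM, those with CpG at 423.6, 460.9 and 455.3 CPM, and those with LPS at 455.9, 522.2 and 505.1 CPM. Naive was therefore lowest, GC intermediate and the activated groups highest, with each step larger than the spread between libraries. The log2 fold change against naive was 0.49 ± 0.12 in GC cells (edgeR adjusted p = 0.00561), 2.65 ± 0.13 with anti-CD40 (4.99e-09), 2.59 ± 0.13 with CpG (6.23e-09) and 2.74 ± 0.13 with LPS (4.8e-09).

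Mdm2, the ligase that marks p53 for degradation and is itself a p53 target, moved less. It was at 107.1, 91.9 and 126.2 CPM in naive libraries and at 157.8, 170.6 and 154.9 CPM in GC libraries. The anti-CD40 libraries held 173.2, 135.8 and 174.3 CPM, the CpG libraries 150.6, 128.2 and 163.2 CPM, and the LPS libraries 175.8, 142.3 and 166.1 CPM. All GC and activated libraries were above all naive ones, and the GC and activated ranges overlapped. Mdm2 was higher than in naive cells by a log2 fold change of 0.57 ± 0.16 in GC cells (edgeR adjusted p = 0.0103), 0.57 with anti-CD40 (0.0107), 0.44 with CpG (0.0398) and 0.57 with LPS (0.0103). With CpG the call was lost without naive library A (adjusted p = 0.0742), naive library B (0.104) or CpG library C (0.0687), and in fits of the 2 groups alone it was lost for anti-CD40, CpG and LPS (0.0613, 0.133 and 0.052, edgeR). Between anti-CD40 and GC cells the difference was 0.00 ± 0.15 and was not called, as with CpG (-0.13) and LPS (0.00).

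The sestrins SESN1 and SESN2 are p53-induced inhibitors of mTORC1, the kinase complex that drives growth, and these genes moved in opposite directions in activated cells. Sesn1 was at 167.4, 113.2 and 187.1 CPM in naive libraries and at 32.3, 26.6 and 33.9 CPM in GC libraries. It was at 8.25, 14.9 and 9.60 CPM with anti-CD40, 11.1, 13.9 and 7.68 CPM with CpG, and 8.31, 12.9 and 10.7 CPM with LPS. The naive, GC and activated ranges followed each other downward without overlap. Its log2 fold change against naive was -2.33 ± 0.28 in GC cells (edgeR adjusted p = 1.7e-05), -3.83 ± 0.30 with anti-CD40 (3.79e-07), -3.84 with CpG (3.99e-07) and -3.87 with LPS (3.48e-07). Against GC cells it was lower by a log2 fold change of -1.50, -1.51 and -1.54 in the same order (adjusted p = 0.000883, 0.000842 and 0.000738), where 12.4%, 12.6% and 12.2% of all genes were lower. It was the only one of the 10 genes called lower in the comparisons of activated with naive or GC cells.

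Sesn2 was at 9.29, 54.7 and 7.98 CPM in naive libraries and at 9.55, 6.55 and 7.71 CPM in GC libraries. It was at 139.6, 106.5 and 101.4 CPM with anti-CD40, 143.4, 114.8 and 83.8 CPM with CpG, and 130.9, 111.9 and 92.3 CPM with LPS. Each activated library was above each naive and GC library, and naive library B was far above the other naive ones. The log2 fold change against naive was 2.27 ± 0.59 with anti-CD40 (edgeR adjusted p = 0.0101), 2.25 with CpG (0.0108) and 2.22 with LPS (0.0113), and 3.75, 3.72 and 3.69 without naive library B. The call was lost in fits of the 2 groups alone (adjusted p = 0.0694, 0.0749 and 0.0709). The GC difference from naive, -1.60 ± 0.58, was not called (adjusted p = 0.0512), and was called without naive library A (-1.998, 0.0169), without naive library C (-1.92, 0.0103) and by DESeq2 (-1.62, 0.00953). Naive libraries A and C lay within the GC range. The difference rested on naive library B, which all these fits kept.

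Phlda3 encodes a PH-domain protein that competes with AKT for membrane lipids and so represses AKT. It had 2 counts in the 3 naive libraries together and 0 in the 3 GC libraries, where 3 counts over the group, 0.0305 CPM, is the limit that a count of 0 allows for counting error. The activated libraries held 54.7, 67.4 and 38.1 CPM with anti-CD40, 46.7, 64.8 and 38.8 CPM with CpG, and 56.1, 70.6 and 36.5 CPM with LPS. Phlda3 was thus at the floor in the naive and GC libraries and at no less than 36.5 CPM in the 9 activated ones. Against naive the ratio of pooled rates was 2574 with anti-CD40 (95% exact counting interval 712 to 21251), 2334 with CpG (646 to 19274) and 2474 with LPS (685 to 20430). Against GC cells Phlda3 was at least 1784-fold higher with anti-CD40, at least 1618-fold higher with CpG and at least 1715-fold higher with LPS. Both naive counts were in library C: the fitted log2 fold change with anti-CD40 was 11.04, and 13.69 without naive library C and 10.46 without naive library A. Phlda3 passed the filter on low counts only through the libraries in which it was high, so no test of it against naive or GC cells is given.

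Zmat3, a zinc-finger RNA-binding protein that acts on splicing and transcript stability, was at 6.38, 22.5 and 11.5 CPM in naive libraries and at 11.6, 12.3 and 9.96 CPM in GC libraries. It was at 114.1, 88.3 and 90.5 CPM with anti-CD40, 109.5, 96.4 and 86.0 CPM with CpG, and 107.8, 100.3 and 92.9 CPM with LPS. The GC range lay inside the naive range, and all activated libraries were higher. The log2 fold change against naive was 2.86 ± 0.33 with anti-CD40 (edgeR adjusted p = 1.34e-05), 2.85 with CpG (1.38e-05) and 2.90 with LPS (1.2e-05), and 3.45, 3.45 and 3.49 without naive library B. The GC difference, -0.25, was not called (adjusted p = 0.577).

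Aen, an exonuclease that takes part in p53-dependent apoptosis, was at 24.5, 34.1 and 34.1 CPM in naive libraries and at 28.3, 26.3 and 26.4 CPM in GC libraries. It was at 58.0, 58.8 and 62.3 CPM with anti-CD40, 52.4, 45.3 and 53.2 CPM with CpG, and 52.1, 49.8 and 61.3 CPM with LPS. The increase was smaller than for Zmat3, with no overlap between activated and naive or GC libraries. The log2 fold change against naive was 0.95 ± 0.16 with anti-CD40 (edgeR adjusted p = 0.000331), 0.70 with CpG (0.00317) and 0.82 with LPS (0.00109). In the fit of CpG and naive libraries alone the adjusted p was 0.0548. The GC difference, -0.19, was not called (adjusted p = 0.368).

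Trp53inp1 and Pmaip1 were not called in any comparison of the 5 groups. Trp53inp1, whose protein promotes autophagy and p53-dependent death, was at 132.7, 51.5 and 138.8 CPM in naive libraries and at 171.8, 163.4 and 138.6 CPM in GC libraries. It was at 155.8, 62.7 and 143.3 CPM with anti-CD40, 150.2, 62.8 and 156.5 CPM with CpG, and 140.9, 73.6 and 133.6 CPM with LPS. The library lettered B was the lowest in the naive group and in each activated group. The GC difference from naive was 0.55 ± 0.44 (edgeR adjusted p = 0.362), and 0.75 (adjusted p = 0.0398) with the letter as a replicate block over the 15 libraries, although naive and GC libraries of one letter did not deviate together over genes.

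Pmaip1 encodes NOXA, a BH3-only protein that promotes apoptosis by binding MCL1. It was at 20.6, 21.8 and 19.9 CPM in naive libraries and at 22.0, 21.7 and 13.3 CPM in GC libraries. It was at 32.5, 14.4 and 32.4 CPM with anti-CD40, 23.8, 15.1 and 25.8 CPM with CpG, and 32.1, 10.4 and 26.3 CPM with LPS. The lettered B library was again the lowest of each activated group, and all group ranges overlapped. The log2 fold change against naive was -0.13 ± 0.39 in GC cells (edgeR adjusted p = 0.845) and 0.35 ± 0.39 with anti-CD40 (0.53), 0.06 with CpG (0.931) and 0.15 with LPS (0.811).

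**Figure D2:**
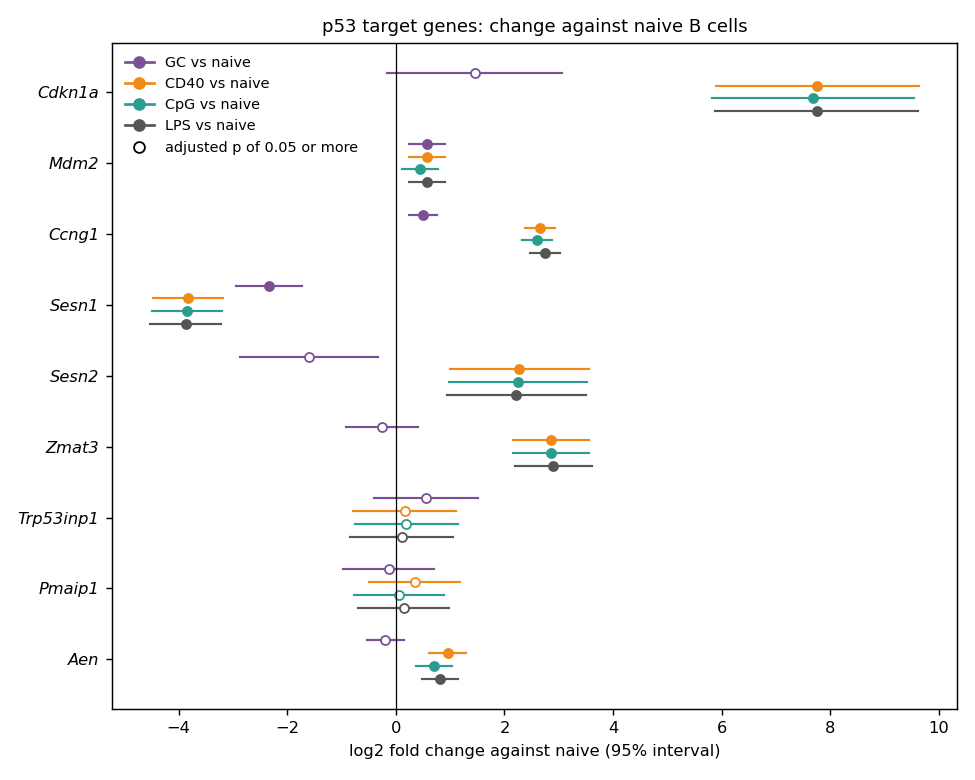
Log2 fold change of 9 of the p53 target genes against naive cells, with 95% intervals, for GC cells and the activated groups; Phlda3 is left out because its naive libraries held 2 counts. Filled points had an edgeR adjusted p under 0.05; Sesn1 lies left of 0 in all 4 comparisons, and Trp53inp1 and Pmaip1 have open points throughout.

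Levels of different genes were compared per length, as CPM per kilobase of annotated exon. In naive cells Sesn1 was the most abundant of the 10 (39.1 ± 9.61 CPM per kilobase, SD, n = 3), followed by Mdm2 (21.3 ± 3.37) and Ccng1 (21.1 ± 1.88), which were within their spread of each other. In GC cells Mdm2 (31.7 ± 1.65) and Ccng1 (29.7 ± 2.54) led, again within their spread, and Trp53inp1 followed (24.4 ± 2.67). Over the 9 activated libraries Ccng1 was first by a wide margin (134 ± 8.32). Cdkn1a was second by its mean (48.0 ± 11.4), with a spread that overlapped that of Phlda3. Phlda3 (33.8 ± 8.51), Sesn2 (32.8 ± 5.94) and Mdm2 (30.8 ± 3.53) followed within their spread of each other. Trp53inp1 (18.5), Aen (9.45), Pmaip1 (8.66), Zmat3 (8.61) and Sesn1 (2.72) were lower. By group means, Sesn1 thus went from first to last of the 10, and Cdkn1a from the ninth place to the second.

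Anti-CD40, CpG and LPS gave similar group means for each of the 10 genes. No gene of the 10, and 0 of 17144 genes, was called between any pair of stimuli by edgeR; 92, 115 and 71 genes had an unadjusted p under 0.05, and DESeq2 called 0, 0 and 1, for CpG against CD40, LPS against CD40 and LPS against CpG. The letters paired the activated libraries, and with the letter as a replicate block in those 9 libraries 27, 44 and 45 genes were called, none of them among the 10. Cdkn1a differed between CpG and anti-CD40 by a log2 fold change of -0.08 (95% interval -1.42 to 1.27; -0.21 to 0.05 with the replicate block), and Ccng1 by -0.06 (-0.32 to 0.20; -0.18 to 0.05 with it). Aen came closest to a difference: its 3 CpG libraries were below its 3 anti-CD40 libraries, with a log2 fold change of -0.25 (-0.58 to 0.09), and with the replicate block -0.25 (-0.43 to -0.07) with an adjusted p of 0.54. A p that misses the threshold is no evidence that the stimuli have equal effects.

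Between the letters, by contrast, several of the 10 genes differed. Each letter is a set of activated libraries that deviated together over genes. The p-values for letters therefore measure the spread of libraries within a set, and not the spread between such sets. With titled stimulus as a term in the 9 activated libraries, 5 of the 10 genes were higher and 2 lower in letter A than in letter B, where 16.6% of the 15727 genes tested were higher and 14.5% lower. Against letter C, 4 were higher and 0 lower in letter A (11.9% and 11.5% of genes), and 4 were higher and 3 lower in letter B (17.3% and 17.5%). The letter accounted for 96.8% of the variance of Cdkn1a among the 9 libraries, 95.2% of that of Phlda3, 97.3% for Trp53inp1, 90.5% for Sesn2 and 87.3% for Pmaip1, on the log2 scale. For Ccng1 and Aen the titled stimulus took the larger share, 50.5% and 51.6%.

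The genes did not follow the letters in the same way. Cdkn1a averaged 191 ± 8.08 CPM in letter A, 203 ± 3.61 in letter B and 118 ± 9.78 in letter C (SD, n = 3 libraries each), and Phlda3 averaged 52.5 ± 5.09, 67.6 ± 2.94 and 37.8 ± 1.18 CPM. Both were lowest in letter C. The log2 difference of letter B from letter C was 0.79 for Cdkn1a (edgeR adjusted p = 2.94e-10) and 0.83 for Phlda3 (3.65e-08).

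Trp53inp1 averaged 149 ± 7.53, 66.4 ± 6.27 and 144 ± 11.5 CPM in letters A, B and C, and Pmaip1 29.5 ± 4.93, 13.3 ± 2.54 and 28.2 ± 3.68 CPM. Both were lowest in letter B. The log2 difference of letter A from letter B was 1.17 for Trp53inp1 (edgeR adjusted p = 8.7e-12) and 1.15 for Pmaip1 (7.15e-07). In an alternative chosen after seeing the data, the 3 activated libraries of one letter were set against naive cells. These libraries again form a set that deviated together, so the adjusted p-values do not measure the spread between such sets. Trp53inp1 was then lower in letter B (-0.70, adjusted p = 0.0385) and Pmaip1 too (-0.64, 0.0295), while in letters A and C they were at 0.47 and 0.42, and at 0.51 and 0.44, and were not called. Of all genes, 40.5%, 43.2% and 42.5% were called in letters A, B and C. Cdkn1a was higher than in naive cells in each letter, by 7.87, 7.96 and 7.17.

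Sesn2 was highest in letter A (138 ± 6.43 CPM), then letter B (111 ± 4.20) and letter C (92.5 ± 8.79). Over the 9 activated libraries Pearson's r of the log2 levels was 0.90 between Cdkn1a and Phlda3, 0.89 between Trp53inp1 and Pmaip1, 0.92 between Sesn2 and Zmat3, and -0.56 between Cdkn1a and Trp53inp1. These libraries share 3 letters, so the values are descriptions. Other measures moved with the letters. Jchain, the joining chain of secreted antibody, was at 69.3 to 113.6 CPM in letter A, 17.0 to 18.97 in letter B and 1538 to 2844 in letter C. Cdkn2a was at 2.51 to 5.54 CPM in letter A and 17.9 to 23.4 in letters B and C. Their part in the letter differences of the p53 targets was not tested.

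**Figure D3:**
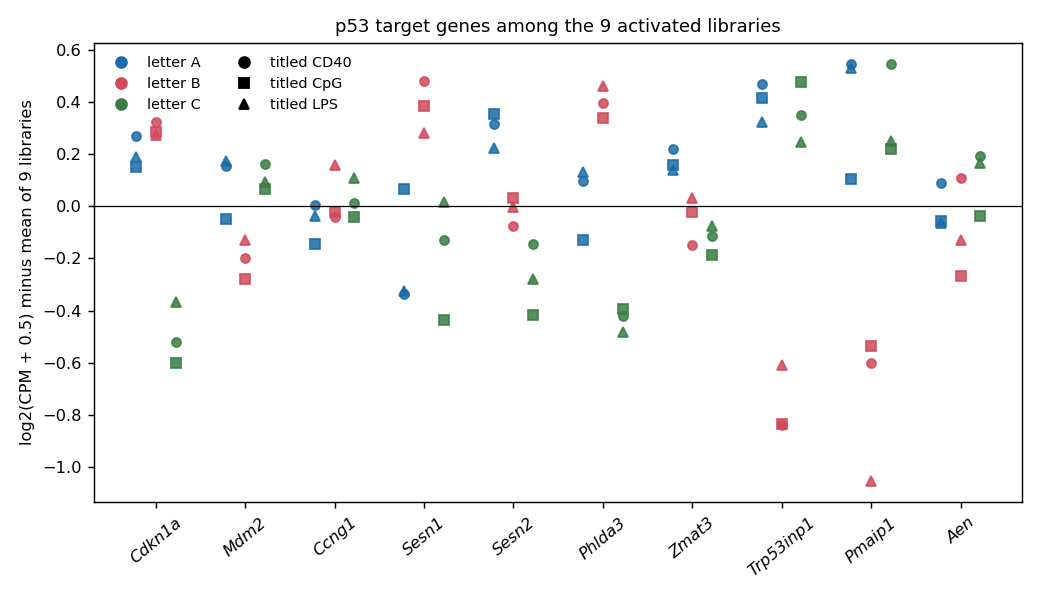
Level of each p53 target gene in the 9 activated libraries as log2(CPM + 0.5) minus the gene's mean over them, with colour for the letter and marker shape for the titled stimulus. Points cluster by colour: letter C is lowest for Cdkn1a and Phlda3 and letter B lowest for Trp53inp1 and Pmaip1.

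The p53 gene itself was flat. Trp53 was at 134 to 193 CPM in naive, 160 to 183 in GC and 151 to 187 CPM in activated libraries, and its log2 fold change against naive was 0.07 in GC cells (edgeR adjusted p = 0.735) and 0.15 with anti-CD40 (0.438). Of the 20 p53 family members and regulators tested, 6 were called higher and 6 lower in GC cells relative to naive ones (17.9% and 16.5% of all genes). The numbers called were 7 and 5 for anti-CD40 (19.8% and 14.3%), 8 and 6 for CpG (19.7% and 14%), and 6 and 6 for LPS (19.5% and 14.2%). Trp63, under 10 counts in each naive and GC library, passed the filter only through activated libraries. Their median log2 fold change with anti-CD40 was 0.07, beside 0.17 over all genes.

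Mdm4, the partner of MDM2 that masks the p53 activation domain, was at 217 to 449 CPM in naive and 276 to 332 in GC libraries and at 438 to 717 CPM in activated ones. It was higher than in naive cells with anti-CD40 (0.70 ± 0.24, edgeR adjusted p = 0.036), CpG (0.68, 0.0403) and LPS (0.80, 0.0183). Cdkn2a, the locus of p16 and of the MDM2 inhibitor ARF, had 0 counts in naive libraries, 1.91 to 5.16 CPM in GC libraries and 2.51 to 23.4 CPM in activated ones. Gene-level counts do not separate p16 from ARF.

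Bcl6 was at 57.1 to 119 CPM in naive, 369 to 421 in GC and 18.8 to 51.6 CPM in activated libraries. It was higher in GC than in naive cells by 2.26 ± 0.38 (edgeR adjusted p = 0.000376) and lower with anti-CD40 by -1.35 ± 0.37 (0.0123). Chek1, the replication checkpoint kinase, rose from at most 2.12 CPM in naive libraries to 50.9 to 56.3 CPM in GC and 24.8 to 33.5 CPM in activated ones. Ppm1d (WIP1, a phosphatase that switches the p53 response off and is itself a p53 target) was lower in activated than in naive cells, by -0.59 with anti-CD40 (adjusted p = 0.0212), and Sirt1, a p53 deacetylase, by -1.30 (0.00152).

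**Figure D4:**
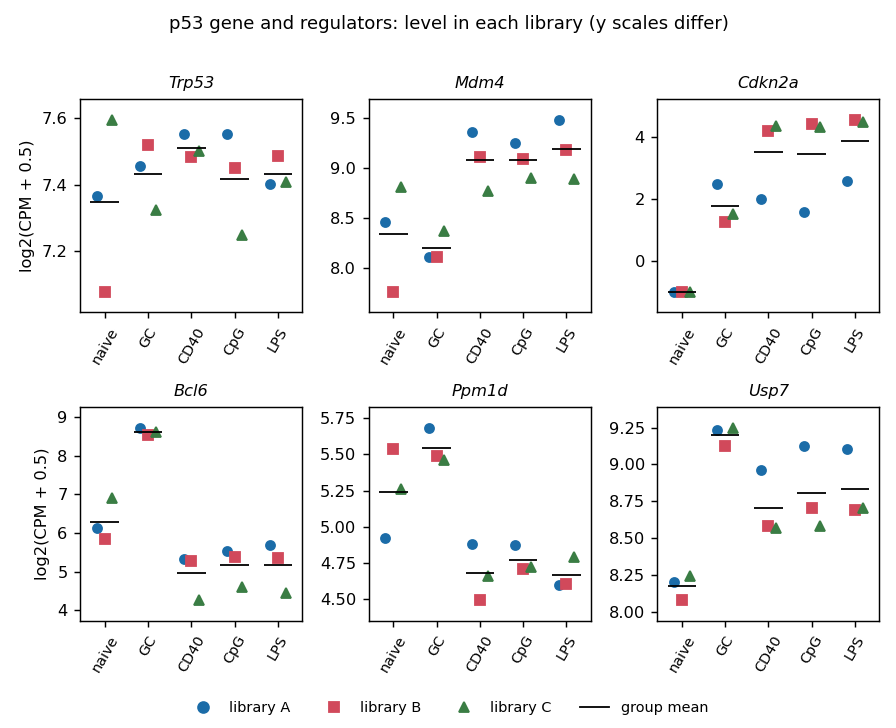
Levels of regulators of p53 as log2(CPM + 0.5) in each of the 15 libraries, with groups on the horizontal axis, points coloured by letter and a bar for the group mean. Vertical scales differ between panels; Trp53 spans 134 to 193 CPM over all libraries, Bcl6 is highest in GC libraries and Cdkn2a is at 0 in the 3 naive libraries.

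Of 31 further p53 targets, 30 were tested. In activated cells 15 were called higher and 7 lower than in naive cells with each of anti-CD40, CpG and LPS, and in GC cells 7 higher and 10 lower, beside 19.8% and 14.3% of all genes with anti-CD40 and 17.9% and 16.5% in GC cells. Perp, Eda2r and Trp53cor1 had under 10 counts in each naive and GC library and passed the filter only through activated libraries. Over the other 27 genes, 13 were higher with anti-CD40, 13 with CpG and 12 with LPS. Those 27 still hold Ak1, at no more than 0.07 CPM in naive and 0.44 CPM in GC libraries. Ak1 too passed the filter only through activated libraries, so these counts are descriptions. The median log2 fold change was 0.80 with anti-CD40 and 0.00 in GC cells, beside 0.17 and 0.00 over all genes. Fas, the death receptor, rose from 3.46 to 14.3 CPM in naive libraries to 134 to 166 CPM in GC libraries (4.31 ± 0.56, edgeR adjusted p = 5.93e-05) and 34.2 to 103 CPM in activated ones (3.13 with anti-CD40, 0.000599). Gtse1, a cell-cycle protein that binds p53, was at 1.48 to 10.1 CPM in naive libraries, 64.6 to 72.7 in GC and 58.5 to 75.6 CPM in activated ones. Fas and Gtse1 were therefore high in GC cells, in which Cdkn1a and Phlda3 were not.

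Plk2, a kinase induced by stress, was at 40.4, 129 and 10.8 CPM in naive libraries and 6.66 to 7.86 CPM in GC libraries (-3.05 ± 0.63, edgeR adjusted p = 0.00195). Perp, a p53-induced membrane protein, had 0 counts in naive and GC libraries and 0.72 to 4.59 CPM in activated ones. Ak1 was at no more than 0.07 CPM in naive and 0.44 CPM in GC libraries and at 2.48 to 4.95 CPM in activated ones. Trp53cor1, the long non-coding RNA next to Cdkn1a known as lincRNA-p21, had 0 counts in naive and GC libraries and 0.10 to 0.85 CPM in activated ones. Gdf15, a secreted stress factor, had 0 counts in naive libraries and at most 0.81 CPM elsewhere.

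**Figure D5:**
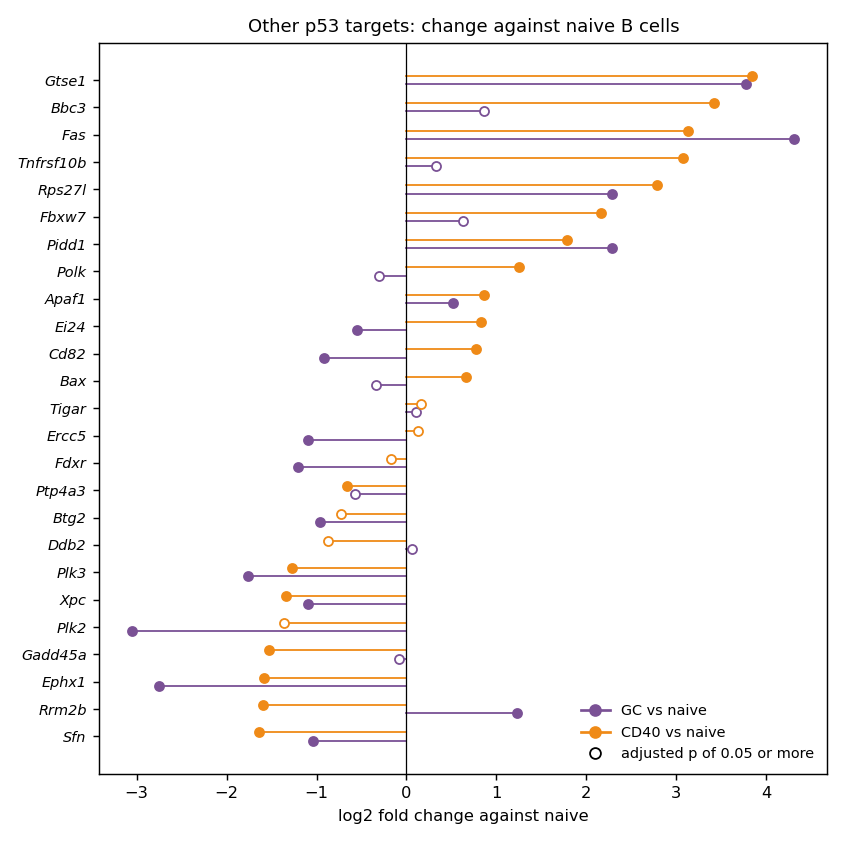
Log2 fold change against naive cells of 25 further p53 targets with a mean of at least 0.5 CPM in naive, GC and anti-CD40 libraries, for GC cells and for cells activated with anti-CD40. Filled points had an edgeR adjusted p under 0.05; Fas and Gtse1 are high in both; Perp, Eda2r, Gdf15, Ak1 and Trp53cor1 were among those too low to plot.

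Proliferation genes were high in GC and in activated cells alike. All 15 on the list were called higher than in naive cells in GC cells and with each stimulus, beside 17.9% of all genes in GC cells and 19.8% with anti-CD40. Mki67 was at 8.96 to 11.4 CPM in naive, 1355 to 1673 in GC and 395 to 688 CPM in activated libraries. Relative to GC cells, 7 of the 15 genes were lower with anti-CD40 and none was higher, beside 12.4% and 15.9% of all genes. Of 10 cyclins, kinases and replication partners that p21 binds, 7 were higher and 1 lower in GC cells than in naive cells, and 8 were higher and 0 lower with anti-CD40 (17.9% and 16.5% of all genes in GC cells, 19.8% and 14.3% with anti-CD40). Ccnd2, the cyclin D2 of B cell activation, was at 30.7 to 34.9 CPM in naive, 6.10 to 10.9 in GC and 363 to 683 CPM in activated libraries. Ccna2, which pairs with CDK2 in S phase, was at 1.91 to 2.99, 237 to 258 and 97.3 to 130 CPM in naive, GC and activated libraries.

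Of the 6 other CDK inhibitors, 3 were higher and 1 lower than in naive cells both in GC cells (17.9% and 16.5% of all genes) and with anti-CD40 (19.8% and 14.3%). Cdkn2b, among the higher ones, was at 0 in naive libraries, at most 0.57 CPM in GC and 0.81 to 4.43 CPM in activated ones. It passed the filter only through activated libraries, so counts that hold it are descriptions. Cdkn1b (p27), the inhibitor of resting lymphocytes, was at 92.5 to 179 CPM in naive libraries, 16.02 to 19.2 in GC and 67.9 to 103 CPM in activated ones (-3.00 in GC cells, edgeR adjusted p = 3.22e-07, and -0.77 with anti-CD40, 0.0162). Cdkn2c (p18) was at 5.66 to 8.43, 80.7 to 92.2 and 20.8 to 33.9 CPM. GC cells thus carried little p21 and p27 transcript and most p18 transcript of the groups. Activated cells carried p21 and an intermediate mean level of p27, for which the CpG and LPS libraries overlapped the naive ones.

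Pathways other than p53 are known to act on the sestrin genes. Of 12 tested genes of the ATF4 stress pathway, which also induces Sesn2, 10 were called higher and 2 lower with anti-CD40 than in naive cells (19.8% and 14.3% of all genes), and 6 higher and 2 lower in GC cells (17.9% and 16.5%). Nupr1 and Vldlr, at 0 in every naive and GC library, passed the filter only through activated libraries, and 8 of the other 10 were higher with anti-CD40. Psat1 was at 22.4 to 30.1 CPM in naive, 201 to 215 in GC and 171 to 248 CPM in activated libraries. Of 12 FOXO genes and targets, 8 were called lower and 1 higher with anti-CD40, and 9 lower and 0 higher in GC cells, beside the same shares of all genes; FOXO factors are also known to act on Sesn1. Of 12 immediate early and heat shock genes, 11 were lower with anti-CD40 (14.3% of all genes) and 11 in GC cells (16.5%), and their summed level was 3795 to 11254 CPM in naive libraries against at most 918 CPM in the others. The part of these pathways in the levels of the 10 genes was not tested.

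The genes most like Cdkn1a over the 15 libraries, by Pearson's r of log2 levels among 9043 genes with a mean of at least 10 CPM, were Ly75 (0.995), Phactr2 (0.992), Fhl3 (0.990), Pcyox1l (0.987) and Azin2 (0.986). Ly75, the endocytic receptor DEC-205, averaged 29.9 CPM in naive, 45.3 in GC and 691 CPM in anti-CD40 libraries. Over the 9 activated libraries among the most alike were Grap (0.989), Cdk5r1 (0.984), Cyp4f16 (0.984) and Plcb2 (0.979). The libraries share groups and letters, and the values describe likeness only.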

How the data were processed

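The deposited table held whole-number gene counts for 15 libraries, made by the authors with STAR 2.7.10a and featureCounts 2.0.6 on GRCm38 (mm10), per the submitters' processing notes, which also name DESeq2. Annotation release, strand setting and multi-mapping reads are not given in the sources used here; libraries were poly(A)-selected and directional, per the series design. Identifiers were matched to GENCODE M21 (54809 of 54838). The 29 unmatched held at most 0.00872% of a library and were kept in the table that was filtered and tested. The table held 0 columns of other samples.

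Counts were filtered (filterByExpr), TMM-scaled and tested with edgeR 4.0.16 (R 4.3.3; robust quasi-likelihood, two-sided) in 1 fit of 15 libraries, with Benjamini-Hochberg adjustment over 17144 genes. Letters were compared in the 9 activated libraries with titled stimulus as a term, over 15727 genes. CPM are counts scaled by the TMM-adjusted library size. The scripts were tested on simulated data. Alternatives were RLE size factors, DESeq2 1.42.0, no filter, only the groups compared, the letter as a replicate block, sums by letter and leaving out each library. The spread between 3 libraries a group and the depth both limit precision; counting intervals cover counting error only.

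Libraries of one letter deviated together from their group means among the activated groups (correlations over genes of 0.561 to 0.692), but not where naive or GC libraries were involved (-0.107 to 0.103); the pairing comes from the titles' letters and from these values, not from a stated animal.

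The genes, lists and tests were chosen with earlier results of these data known. All 10 targets and all tested regulators could be named; of other lists, the 4 called genes with the largest fold in GC or anti-CD40 cells against naive; of markers, any; and the 5 genes most like Cdkn1a, of which 1 over the activated libraries is not reported here. Eda2r was named after its values were seen. Promoters are RefSeq GRCm38.p6. Zmat3, Trp53inp1 and Pmaip1 have no promoter entry in the table used.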

Additional observations from a re-analysis of the deposited data

How the results depend on the processing

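Of 1669 fold changes of the 10 genes recomputed under the alternatives, 1523 kept direction and side of the threshold, 107 changed sign without being called in either fit, 22 lost and 11 gained a call, and 6 reversed. The 6 were Trp53inp1 (-0.70, edgeR adjusted p = 0.0385) and Pmaip1 (-0.64, 0.0295) against naive in 1 fit that pooled the activated libraries lettered B. This alternative, chosen after seeing the data, did not separate the stimuli, and its result was entered once each for anti-CD40, CpG and LPS. Fits of libraries summed by letter were entered in the same way, so the totals hold repeats. Pooling the libraries lettered B also raised the number of members called lower to 3 against naive and to 2 against GC in each comparison. Of 334 counts of members called, 318 stayed within 1.5 times. In GC against naive cells, 2 members were lower by DESeq2, and 1 to 2 when single libraries were left out. With CpG against naive, 4 members were higher in the fit of those 2 groups alone, where 3137 of all genes were called in place of 5768. Leaving out single libraries, members lower in letter A than B numbered 1 to 2, and members higher in letter B than C 2 to 4; Sesn1, Zmat3 and Sesn2 lost calls there. The shares of all genes called higher and lower in these alternative fits are not reported here, so these counts are descriptions. The cause of these changes in calls was not tested. With the replicate block over 15 libraries, Trp53inp1 in GC cells (0.75, adjusted p = 0.0398) was the only changed call of the 10 genes, and in the 9 activated libraries the block changed none. Over all genes, fits of the 2 groups alone called 3005, 3137 and 3349 genes for anti-CD40, CpG and LPS against naive, in place of 5849, 5768 and 5779. With 3 libraries a group, differences in Trp53inp1 and Pmaip1 smaller than their spread were not detectable.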
